A study of Homo sapiens with 12 samples.

Results

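Mitotic spindle, kinetochore and cytokinesis genes are described here, 52 in all, whose products build the mitotic spindle, attach chromosomes to it, compact chromosomes or divide the cell. They were chosen by name from what their products do, with no threshold on their values but with earlier results of these data known. The list holds 7 classes, of 12 kinesins, 9 kinetochore and centromere genes, 5 spindle checkpoint genes, 8 mitotic kinase and chromosomal passenger genes, 6 cytokinesis genes, 6 condensin and topoisomerase genes, and 6 genes of mitotic entry and anaphase. All 52 passed the filter on low counts, among 17188 genes tested of 58302 identifiers in the tables. RNA was sequenced from MIB1-iKO cells, which are NCIH838 lung cancer cells carrying a doxycycline (Dox)-inducible Cas9 and a guide against MIB1, an E3 ubiquitin ligase. LDN, which blocks BMP type I receptors, was present at 50 nmol/L for the first 3 days, without Dox (MIB1 WT) or with 0.5 μg/mL Dox (MIB1 KO). The cells were then replated and given BMP4 at 10 ng/mL for 24 hours. LDN was kept in the BMP-off groups during this time and replaced by the DMSO vehicle in the BMP-on groups. This gave 4 groups of 3 libraries, namely MIB1 WT BMP-off, MIB1 WT BMP-on, MIB1 KO BMP-off and MIB1 KO BMP-on. The paper describes MIB1-iKO cells as clonal lines, but the sources used here do not say which clone was sequenced. Each KO library also received Dox and induced Cas9, so Dox, DNA cutting and loss of MIB1 cannot be told apart. The labels do not say whether the 3 libraries of a group came from separate cultures, so each p-value measures the spread among these libraries, which may be technical. The comparisons ask how the mitotic transcripts differed when BMP receptors were free to signal, and whether that difference was the same with and without MIB1.

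Cells enter mitosis when CDK1 with cyclin B becomes active, and they condense their chromosomes with the help of condensin and topoisomerase II. Kinesin motors and kinases such as Aurora A and PLK1 shape the spindle, the NDC80 complex of each kinetochore holds its microtubules, and the checkpoint proteins BUB1, BUB1B, BUB3, MAD2L1 and TTK delay anaphase until every kinetochore is attached. CDC20 and the anaphase-promoting complex then release separase, and anillin, PRC1 and the RhoA regulators ECT2 and RACGAP1 complete cytokinesis. Most of these genes are transcribed in late S, G2 and M phase under the DREAM repressor and the activators B-MYB (MYBL2) and FOXM1, so their RNA is abundant in dividing cells and scarce in resting ones.

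The libraries held 19124010 to 29498000 counts each. MIB1 had 144 to 176 CPM (counts scaled to the size of the library) in the 6 WT libraries and 31.0 to 34.4 CPM in the 6 KO libraries, so its level went with the labels in each of them. The epithelial keratin genes KRT8 and KRT18 had at least 21.8 and 71.1 RPKM (reads scaled to library size and gene length). KRT19 and the lung lineage genes NKX2-1, SFTPB and SFTPC had at most 0.0775 RPKM, and the leukocyte gene PTPRC was at 0 in all 12 libraries. The libraries also differed in how counts went with GC content. The rank correlation across genes of GC with a library's deviation from its group mean ran from -0.60 in MIB1 KO BMP-off replicate 2 to 0.59 in MIB1 KO BMP-off replicate 3, with -0.43 in MIB1 WT BMP-off replicate 1. Counts of calls are therefore also given with 1 library left out at a time.

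By RPKM, which is per length and so compares genes, the members spanned more than an order of magnitude. TPX2, a spindle assembly factor that activates Aurora A, had the highest mean over the 12 libraries at 202 RPKM, followed by TOP2A, the topoisomerase that untangles sister chromatids, at 175 RPKM and UBE2C, the ubiquitin-conjugating enzyme of the anaphase-promoting complex, at 158 RPKM. The lowest were CENPI, a subunit of the constitutive centromere complex, at 7.92 RPKM, CENPK of the same complex at 10.5 RPKM, and CDC25C, a phosphatase that activates CDK1, at 11.4 RPKM. Values below are CPM scaled by TMM, which compare 1 gene between libraries and not genes with each other. Reads of many members could also belong to a neighbor, and the largest overlaps are given first. In GENCODE exons PRC1 shares 1892 bases with its antisense gene and 3181 with another coding model on its own strand, ARHGAP11A shares 1943 with a readthrough model, SMC4 shares 1553 with TRIM59 and NCAPG shares 1634 with LCORL. Smaller overlaps with a gene on the opposite strand are in SGO1 (593 bases), KIF22 (561), PLK1 (553), KIFC1 (424), NCAPD2 (383) and CDC25C (293). Other members share fewer bases. Whether counting used strand is not given in the sources used here. ARHGAP11A, KIF4A and PTTG1 also have closely related copies elsewhere in the genome, so their counts are uncertain to that extent.

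Promoters of the members were read next, because most of them moved together. RefSeq promoters (GRCh38.p14, 250 bases before to 50 after each transcription start) were found for 45 of the 52, and 37 of these had a single start. AURKA, BIRC5, BUB3, RACGAP1, TPX2, TTK and UBE2C had no entry. The motif TTTGAA, the core of the cell cycle genes homology region, was present on either strand in 27 of the 37 (73.0%), against 15.2% of all 35116 promoters. CCAAT, the letters recognized by NF-Y, was also present in 27 of the 37 (73.0%), against 34.6% of all promoters. Both motifs together were in 21 of the 37 (56.8%), against 5.90% of all promoters, while the E2F form GCGGGAA was in 3 of the 37 (8.11%), against 6.55%. In 23 of the 27 the TTTGAA began within 50 bases of the start, a window chosen after the positions were seen, against 30.5% of all promoters that hold it. These matches are a description of the letters in the windows and not of bound sites.

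The promoters of 5 members are shown, those of the member of each class whose KO level was lowest relative to WT within BMP-on, where the RefSeq table held one, so that motif spacing can be compared. Capitals mark the 3 motifs named above, on either strand. Each sequence reads 5′ to 3′ on the gene's own strand, and no motif overlaps a different one. The first 4 hold TTTGAA, as a tandem pair in KIF20B, and the ARHGAP11A window holds none of the 3 motifs.
CENPF (chr1:214602945-214603244, plus strand): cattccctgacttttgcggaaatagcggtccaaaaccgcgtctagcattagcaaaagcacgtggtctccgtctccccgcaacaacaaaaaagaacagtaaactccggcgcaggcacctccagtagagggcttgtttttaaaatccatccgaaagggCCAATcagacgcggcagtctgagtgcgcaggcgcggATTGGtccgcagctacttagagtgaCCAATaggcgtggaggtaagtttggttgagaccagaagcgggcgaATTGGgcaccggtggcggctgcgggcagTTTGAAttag
KIF20B (chr10:89701340-89701639, plus strand): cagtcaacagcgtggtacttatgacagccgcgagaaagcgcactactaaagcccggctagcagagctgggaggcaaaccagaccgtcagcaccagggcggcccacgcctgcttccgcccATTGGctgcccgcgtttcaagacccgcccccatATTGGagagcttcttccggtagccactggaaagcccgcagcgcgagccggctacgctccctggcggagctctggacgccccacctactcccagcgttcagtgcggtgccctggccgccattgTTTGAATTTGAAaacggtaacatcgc
TOP2A (chr17:40417847-40418146, minus strand): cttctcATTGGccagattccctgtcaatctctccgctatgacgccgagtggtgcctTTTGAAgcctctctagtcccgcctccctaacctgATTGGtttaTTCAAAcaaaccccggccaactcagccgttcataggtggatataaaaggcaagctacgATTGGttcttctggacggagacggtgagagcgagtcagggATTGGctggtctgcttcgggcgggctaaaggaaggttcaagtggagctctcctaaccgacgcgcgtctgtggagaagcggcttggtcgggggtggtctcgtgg
BUB1B (chr15:40160819-40161118, plus strand): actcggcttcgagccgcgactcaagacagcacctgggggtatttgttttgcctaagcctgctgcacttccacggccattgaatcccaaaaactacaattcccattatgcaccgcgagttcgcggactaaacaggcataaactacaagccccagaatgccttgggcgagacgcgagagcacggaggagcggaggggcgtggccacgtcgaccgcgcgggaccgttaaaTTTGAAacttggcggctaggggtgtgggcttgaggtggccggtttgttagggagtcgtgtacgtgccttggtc
ARHGAP11A (chr15:32614894-32615193, plus strand): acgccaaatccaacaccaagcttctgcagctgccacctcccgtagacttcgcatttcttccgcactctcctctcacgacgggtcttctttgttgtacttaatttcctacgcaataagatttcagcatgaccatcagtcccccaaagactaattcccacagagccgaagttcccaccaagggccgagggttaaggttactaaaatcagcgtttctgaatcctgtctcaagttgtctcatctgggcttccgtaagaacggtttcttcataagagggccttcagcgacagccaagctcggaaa

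Members with and without each motif are described next, and no difference between them was tested. For MIB1 KO against WT with BMP-on, the median log2 fold change was -0.31 in the 27 members with TTTGAA (range -0.42 to -0.21) and -0.32 in the 10 without (range -0.40 to -0.14), with 22 and 6 called lower. For BMP-on against BMP-off in MIB1 KO, the medians were -0.46 and -0.43. With CCAAT they were -0.44 in the 27 that held it and -0.52 in the 10 that did not. For BMP-on against BMP-off in MIB1 WT, the medians were -0.18 with TTTGAA and -0.17 without, with 9 of 27 and 6 of 10 called lower, and -0.17 with CCAAT and -0.20 without, with 8 of 27 and 7 of 10 called lower.

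As a group, the 52 genes were highest with BMP receptors blocked, lower in MIB1 WT BMP-on and lowest in MIB1 KO BMP-on. Their summed level was 12357 ± 432 CPM (SD, n = 3) in MIB1 WT BMP-off, 10982 ± 44.9 in MIB1 WT BMP-on, 12050 ± 271 in MIB1 KO BMP-off and 8857 ± 61.6 in MIB1 KO BMP-on. This is 1.24%, 1.10%, 1.20% and 0.886% of all counts. Relative to the mean of MIB1 WT BMP-off, the median member stood at 97.9 to 103% in the libraries of that group, 94.5 to 101% in MIB1 KO BMP-off, 88.1 to 88.8% in MIB1 WT BMP-on and 71.4 to 72.0% in MIB1 KO BMP-on. The 2 BMP-off groups overlapped, and neither BMP-on group overlapped any other. In 47 of the 52 genes all 3 MIB1 KO BMP-on libraries lay below the 9 others, as was true of 7.39% of all genes tested. The 5 exceptions were KIF18B, KIF22, KIFC1, PLK1 and INCENP, and in each of them MIB1 KO BMP-off replicate 2 lay within the KO BMP-on range or below it. In bulk RNA, fewer mitotic cells and less of these transcripts per cell cannot be told apart.

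**Figure D1:**
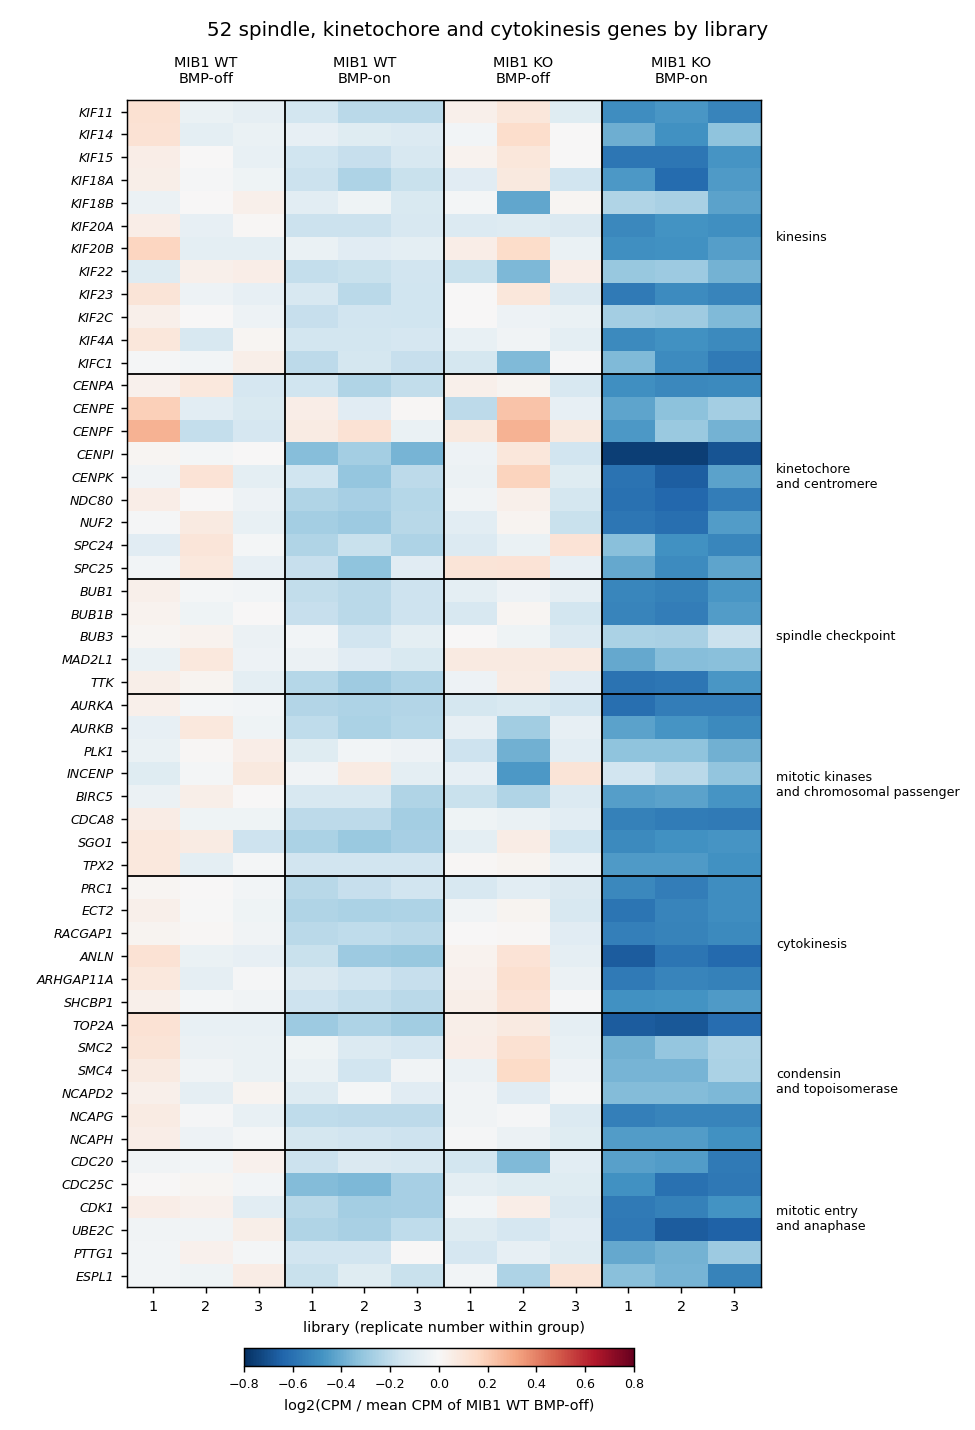
Heat map of the 52 genes (rows, in 7 classes) in the 12 libraries (columns, 3 per group), colored by log2 of CPM over the mean CPM of MIB1 WT BMP-off, with blue for lower and red for higher. The 3 MIB1 KO BMP-on columns are the bluest in nearly all rows, MIB1 WT BMP-on is paler, and MIB1 KO BMP-off replicate 2 is blue in a few rows such as INCENP and PLK1.

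The same order was seen in each of the 7 classes. Relative to MIB1 WT BMP-off, the class medians per library ran from -0.55 to -0.41 on the log2 scale in MIB1 KO BMP-on and from -0.27 to -0.12 in MIB1 WT BMP-on. In MIB1 KO BMP-on the medians were -0.55, -0.53 and -0.50 for cytokinesis genes, and those of condensin and topoisomerase genes were the least low (-0.41, -0.41 and -0.42). In MIB1 KO BMP-off they lay between -0.18 and 0.091, overlapping MIB1 WT BMP-off in 5 of the 7 classes. In the other two, mitotic kinases with chromosomal passenger genes and mitotic entry and anaphase, all 3 MIB1 KO BMP-off medians lay below those of MIB1 WT BMP-off.

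**Figure D2:**
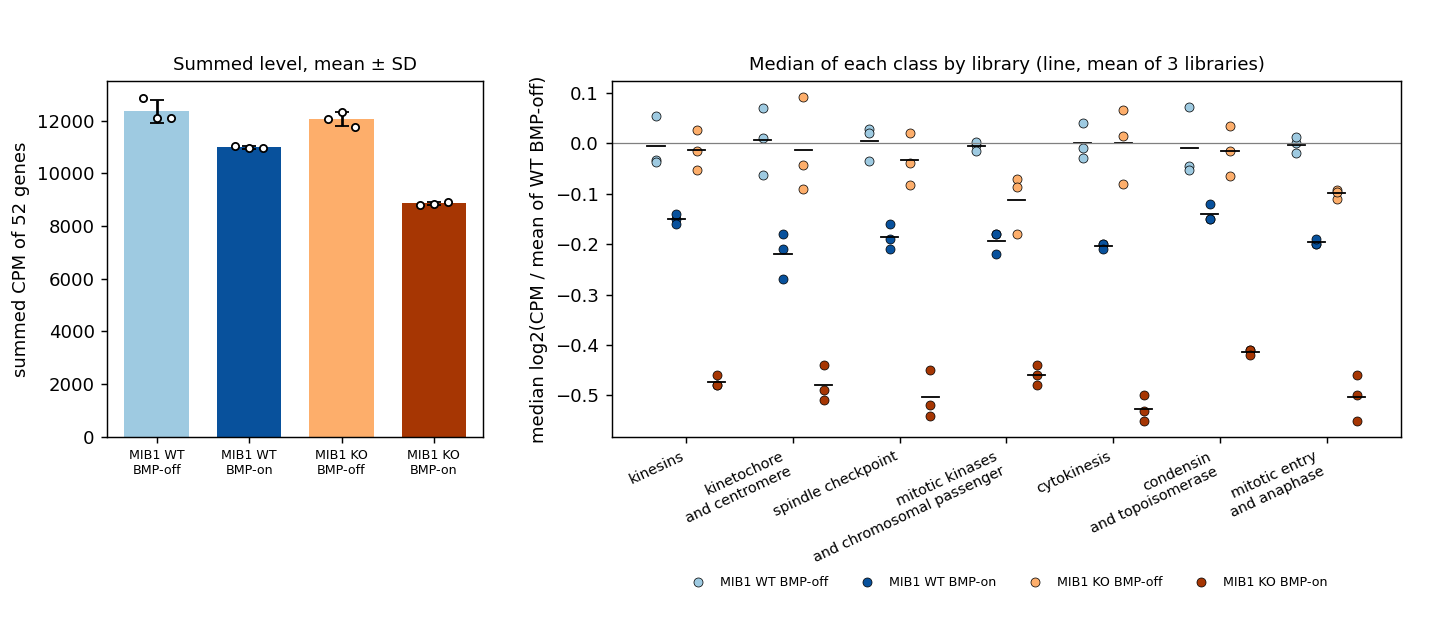
Left, summed CPM of the 52 genes in each group, with bars for the mean, error bars for the SD and points for the 3 libraries. Right, for each class, the median log2 of CPM over the mean of MIB1 WT BMP-off in each library (points) and the mean of 3 libraries (line), where MIB1 KO BMP-on lies between -0.55 and -0.41, below MIB1 WT BMP-on in each class.

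With MIB1 present, 23 of the 52 genes fell with BMP-on and none rose (edgeR quasi-likelihood test, adjusted p at most 0.05, the call used throughout). Of all genes tested, 2.01% were called lower and 1.91% higher. The falls were small, the median over the 52 members being -0.18 on the log2 scale, which is 88.0% of the BMP-off level, against a median of 0.0016 over all genes. Cytokinesis genes had the most calls for their number at 5 of 6, followed by the spindle checkpoint with 3 of 5, the kinases and chromosomal passenger genes with 4 of 8, condensin and topoisomerase with 3 of 6, mitotic entry and anaphase with 3 of 6, kinetochore and centromere with 3 of 9 and kinesins with 2 of 12. In 39 of the 52 the 3 BMP-on libraries lay below the 3 BMP-off libraries, as they did for 12.7% of all genes. The study also required a change of at least 1 on the log2 scale, which no member reached and 0.425% of all genes did.

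The largest fall with MIB1 present was in CENPI (chrX:101098188-101166126, GRCh38). Its level was 34.5, 33.9 and 34.2 CPM in MIB1 WT BMP-off and 27.0, 28.3 and 26.4 CPM in MIB1 WT BMP-on, against 33.2, 36.4 and 30.8 CPM in MIB1 KO BMP-off and 20.3, 20.3 and 21.2 CPM in MIB1 KO BMP-on. No BMP-on library overlapped a BMP-off library, and KO BMP-on was the lowest. CENPI fell by 0.33 ± 0.066 (SE) on the log2 scale in MIB1 WT (edgeR adjusted p = 0.00726) and by 0.70 ± 0.067 in MIB1 KO (edgeR adjusted p = 1.87e-06), also the largest fall of any member there. The WT call was lost without MIB1 WT BMP-on replicate 3 (edgeR adjusted p = 0.0575). At the other end was CENPF (chr1:214603185-214664574), a large protein of the outer kinetochore. It had 424, 307 and 319 CPM in MIB1 WT BMP-off and 366, 380 and 338 CPM in MIB1 WT BMP-on, with 370, 424 and 370 CPM in MIB1 KO BMP-off and 255, 285 and 269 CPM in MIB1 KO BMP-on. The WT groups overlapped, as the first WT BMP-off library stood far above the other two, whereas the KO BMP-on libraries were below all others. CENPF gave a log2 fold change of 0.046 ± 0.11 in MIB1 WT, which was not called (edgeR adjusted p = 0.890) and was 0.21 without that library, and fell by 0.53 ± 0.11 in MIB1 KO (edgeR adjusted p = 0.00665).

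The number of WT calls depended on single libraries. The fit estimates the spread from all libraries together, so a library outside a comparison can also move its calls. Leaving out 1 library at a time gave 8 to 30 members called lower, with 8 without MIB1 WT BMP-on replicate 3, 9 without replicate 2 and 11 without replicate 1 of that group, 13 without MIB1 WT BMP-off replicate 1 and 30 without MIB1 KO BMP-off replicate 2. In the same fits and order, 170, 205, 165, 233 and 560 of all genes tested were called lower, against 346 with all libraries. The median of the members stayed between -0.20 and -0.17 in each fit that left out a library.

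With MIB1 lost, 48 of the 52 genes fell with BMP-on and none rose, against 10.9% of all genes called lower and 11.1% called higher. The median log2 fold change was -0.45, or 73.3% of the BMP-off level, against 0.0056 over all genes. Each kinetochore and centromere, checkpoint, cytokinesis, condensin and topoisomerase, and entry and anaphase gene was called lower, as were 10 of 12 kinesins and 6 of 8 kinase and passenger genes. The 4 not called were KIF18B, a kinesin that limits astral microtubules, KIF22, a chromosome-arm kinesin, PLK1, a kinase acting from mitotic entry to cytokinesis, and INCENP, the scaffold of the chromosomal passenger complex. Their log2 fold changes were -0.18 ± 0.092, -0.17 ± 0.081, -0.13 ± 0.061 and -0.099 ± 0.11. In 47 members the KO BMP-on libraries lay below the KO BMP-off libraries, against 17.8% of all genes. No member met the added fold criterion, which 1.66% of all genes met. Leaving out 1 library at a time gave 46 to 51 members called lower, with 1259 to 2468 lower over all genes.

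Across genes, members that fell more in MIB1 WT also tended to fall more in MIB1 KO, although these comparisons share no library. Pearson's r over the 52 log2 fold changes was 0.56 and Spearman's rho 0.54, given as a description because the genes share the same libraries within each comparison and one fit. All 23 members called in MIB1 WT were among the 48 called in MIB1 KO, and 25 of the 48 were called in MIB1 KO alone. A call in one and not the other does not show a difference. The difference itself is tested next.

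The BMP response was more negative in MIB1 KO than in MIB1 WT for 51 of the 52 genes, with a median difference of -0.26 on the log2 scale, against 0.012 over all genes. It was more negative in MIB1 KO for 8185 of all 17188 genes tested. In the test of that difference itself (the interaction), 4 members passed an adjusted p of 0.05, all toward a larger fall in KO. An unadjusted p under 0.05 was met by 37 of the 52, all lower, and by 1018 lower and 801 higher of all 17188 genes. Of all genes, 0.0524% (9 genes) passed the adjusted p toward lower and 0.0407% toward higher, and 0% (no gene) also differed by 1 or more on the log2 scale. Lower calls made up 56.2% of these 16 genes, against 30.0% with scaling by library size and 41.7% with upper quartile scaling. The 4 were KIF15, ARHGAP11A, SHCBP1 and TOP2A.

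KIF15 (chr3:44761721-44873376, plus strand) is a plus-end-directed spindle motor that can stand in for KIF11. It had 93.4, 90.5 and 86.7 CPM in MIB1 WT BMP-off, 80.6, 79.5 and 82.5 CPM in MIB1 WT BMP-on, 91.9, 96.2 and 90.3 CPM in MIB1 KO BMP-off and 60.5, 60.5 and 65.0 CPM in MIB1 KO BMP-on. The BMP-off libraries of both genotypes overlapped and the KO BMP-on libraries were the lowest. KIF15 gave -0.16 ± 0.049 in MIB1 WT and -0.58 ± 0.05 in MIB1 KO, a difference of -0.42 ± 0.07 (edgeR adjusted p = 0.0305). ARHGAP11A (chr15:32615144-32639941, plus strand) is a GTPase-activating protein for RhoA. Its libraries had 256, 229 and 239 CPM in MIB1 WT BMP-off, 222, 217 and 212 in MIB1 WT BMP-on, 247, 263 and 233 in MIB1 KO BMP-off and 163, 167 and 166 in MIB1 KO BMP-on. The 3 KO BMP-on values were tightly grouped and well below the rest, and the difference between the responses was -0.43 ± 0.072 (edgeR adjusted p = 0.0305).

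SHCBP1 (chr16:46578591-46621379, minus strand) works with centralspindlin in midbody assembly. It had 343, 330 and 326 CPM in MIB1 WT BMP-off, 297, 292 and 287 CPM in MIB1 WT BMP-on, 344, 359 and 331 CPM in MIB1 KO BMP-off and 238, 239 and 243 CPM in MIB1 KO BMP-on. The groups separated by BMP in both genotypes, with KO BMP-on lowest, and the responses differed by -0.33 ± 0.058 (edgeR adjusted p = 0.0413). TOP2A (chr17:40388525-40417896, minus strand) had 1205, 1067 and 1069 CPM in MIB1 WT BMP-off, 911, 937 and 918 CPM in MIB1 WT BMP-on, 1153, 1170 and 1059 CPM in MIB1 KO BMP-off and 701, 695 and 731 CPM in MIB1 KO BMP-on. This topoisomerase was the second most abundant member by RPKM, and its KO BMP-on libraries lay below all others. It fell by 0.27 ± 0.051 in MIB1 WT (edgeR adjusted p = 0.00428) and by 0.67 ± 0.051 in MIB1 KO (edgeR adjusted p = 1.81e-07), a difference of -0.40 ± 0.072 (edgeR adjusted p = 0.0484).

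The most negative difference of all was in CENPF, -0.57 ± 0.16, but its adjusted p was 0.225 (edgeR) and became 0.00256 without MIB1 WT BMP-off replicate 1, when the difference was -0.75. The least negative was in KIF22, with 122, 135 and 136 CPM in MIB1 WT BMP-off, 115, 116 and 118 CPM in MIB1 WT BMP-on, 116, 102 and 136 CPM in MIB1 KO BMP-off and 106, 107 and 101 CPM in MIB1 KO BMP-on. Its responses were equal to 2 decimals in both genotypes, and the KO BMP-off libraries were spread more widely than any other group. The number of interaction calls moved with the libraries and the tool. It was 0 in the fits without any 1 of 9 libraries, 2 without MIB1 KO BMP-off replicate 2, and 23 without either MIB1 WT BMP-off replicate 1 or MIB1 KO BMP-off replicate 3, which with MIB1 KO BMP-off replicate 2 had the strongest correlations with GC content. Over all genes, the number called lower was also 0 in each of those 9 fits and 6 without MIB1 KO BMP-off replicate 2. It was 192 without MIB1 WT BMP-off replicate 1 and 134 without MIB1 KO BMP-off replicate 3. DESeq2 called 23 members and limma-voom 2, none of them higher, with 110 and 4 lower over all genes. The median difference stayed between -0.30 and -0.23 in all of these fits.

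**Figure D3:**
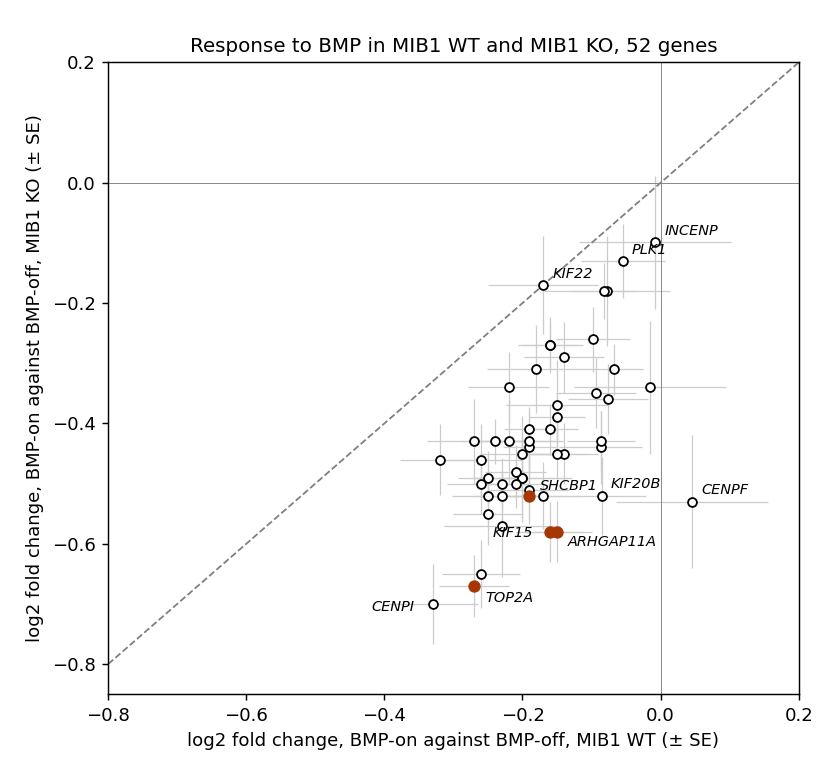
Log2 fold change of BMP-on against BMP-off in MIB1 KO (vertical) against that in MIB1 WT (horizontal) for the 52 genes, with bars for the SE, a dashed line where both are equal, and filled brown points for the 4 genes with an interaction adjusted p of at most 0.05. KIF22 lies on the line and the 51 others below it, from INCENP at the top right to CENPI at the bottom left.

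When BMP-on groups were compared directly, 41 of the 52 genes were lower in MIB1 KO than in MIB1 WT and none was higher. Of all genes, 2.34% were called lower and 1.32% higher. The paper had already reported decreased cell cycle pathways for this comparison, from gene set enrichment in the same experiment. The median member was at 80.9% of the WT level (log2 fold change -0.31, against 0.0025 over all genes), within a narrow range from -0.42 to -0.14. In all 52 members the 3 KO libraries lay below the 3 WT libraries, as they did for 12.2% of all genes. All 6 cytokinesis genes and all 6 condensin and topoisomerase genes were called, with 4 of 5 checkpoint, 5 of 6 entry and anaphase, 9 of 12 kinesin, 6 of 8 kinase and passenger, and 5 of 9 kinetochore and centromere genes. No member met the added fold criterion, met by 0.140% of all genes. Leaving out 1 library at a time gave 31 to 47 calls, with 213 to 519 lower over all genes. Of all genes called in this comparison, 64.0% were lower, or 52.9% with scaling by library size alone.

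**Figure D4:**
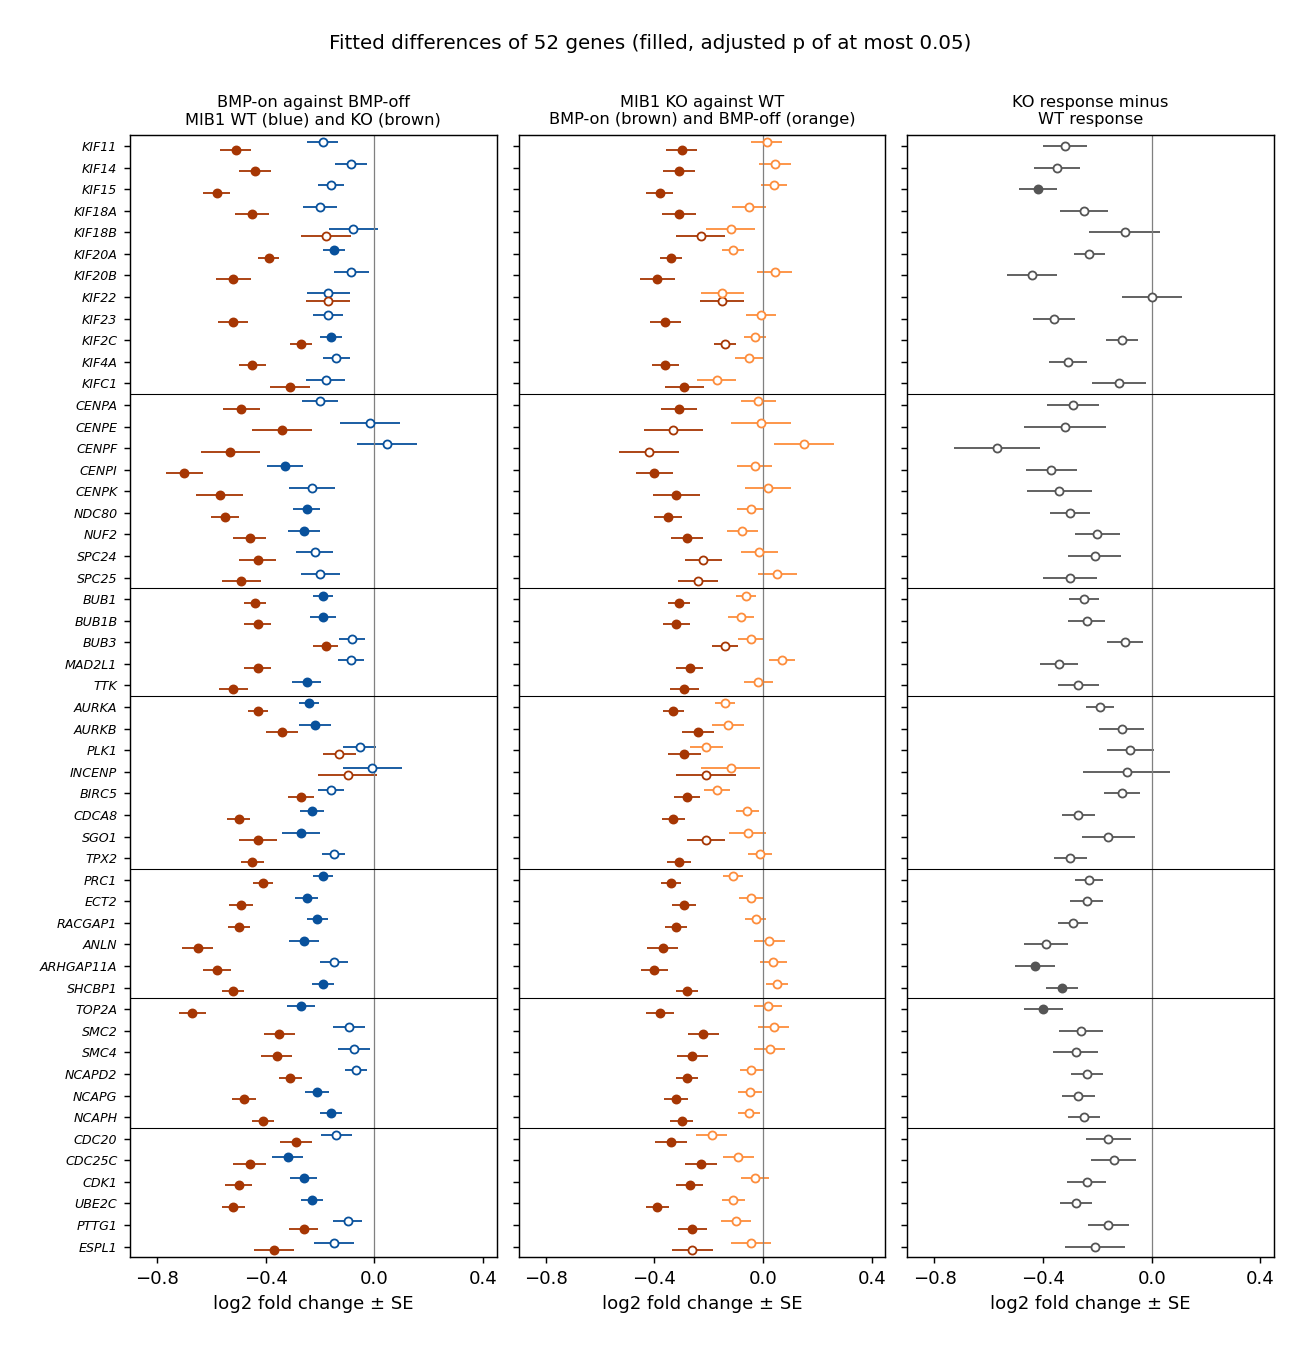
Log2 fold change ± SE of each of the 52 genes (rows, with lines between classes), for BMP-on against BMP-off in each genotype (left), MIB1 KO against WT in each BMP state (middle) and the difference between the genotypes' BMP responses (right). Filled points have an edgeR adjusted p of at most 0.05, and the middle panel shows all 52 genes below 0 with BMP-on and around 0 with BMP-off.

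Among the kinesins, the largest differences between KO and WT with BMP-on were in KIF20B, a motor of the late spindle and cytokinesis, and in KIF15. KIF20B had 108, 105 and 106 CPM in MIB1 WT BMP-on and 79.7, 79.9 and 82.6 CPM in MIB1 KO BMP-on, with 126, 106 and 106 CPM in MIB1 WT BMP-off and 116, 124 and 108 CPM in MIB1 KO BMP-off. KO BMP-on libraries stood apart, while the 3 other groups overlapped. The KO to WT log2 difference was -0.39 ± 0.065 for KIF20B (edgeR adjusted p = 0.00205) and -0.38 ± 0.05 for KIF15 (edgeR adjusted p = 4.21e-04). KIF2C, which depolymerizes microtubules at centromeres, had the smallest difference of all 52 members. It had 190, 194 and 193 CPM in MIB1 WT BMP-on, 179, 177 and 169 CPM in MIB1 KO BMP-on, 222, 216 and 210 CPM in MIB1 WT BMP-off and 216, 210 and 208 CPM in MIB1 KO BMP-off. The BMP-on groups did not overlap, but its -0.14 ± 0.041 was not called (edgeR adjusted p = 0.0887).

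In the kinetochore and centromere class, CENPF had the most negative value but was not called. Its -0.42 ± 0.11 had an adjusted p of 0.0705 (edgeR), and of 9.69e-04 when MIB1 WT BMP-off replicate 1, the library with the high CENPF count, was left out (0.0467 without replicate 2 of that group, edgeR). These libraries are outside the comparison, and the log2 fold change was -0.43 in both fits. CENPI was called at -0.40 ± 0.068 (edgeR adjusted p = 0.00254). The least negative was SPC24, a subunit of the NDC80 complex, with 52.8, 55.2 and 52.5 CPM in MIB1 WT BMP-on, 49.4, 44.6 and 43.5 CPM in MIB1 KO BMP-on, 58.6, 66.7 and 61.8 CPM in MIB1 WT BMP-off and 57.9, 60.2 and 67.2 CPM in MIB1 KO BMP-off. Its BMP-on groups were separate but close, and -0.22 ± 0.069 was not called (edgeR adjusted p = 0.102). The other NDC80 subunits gave -0.35 ± 0.052 for NDC80 and -0.28 ± 0.059 for NUF2, both called, and -0.24 ± 0.074 for SPC25, not called.

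The checkpoint kinase BUB1 and its paralog BUB1B, which restrains CDC20, gave close values. BUB1 had 317, 313 and 323 CPM in MIB1 WT BMP-on, 253, 250 and 263 CPM in MIB1 KO BMP-on, 373, 359 and 358 CPM in MIB1 WT BMP-off and 344, 353 and 345 CPM in MIB1 KO BMP-off. BUB1B had 217, 213 and 220 CPM in MIB1 WT BMP-on, 171, 168 and 181 CPM in MIB1 KO BMP-on, 252, 241 and 247 CPM in MIB1 WT BMP-off and 226, 250 and 223 CPM in MIB1 KO BMP-off. In both genes each BMP-on group was separate from all others. Both were lower in KO with BMP-on, with log2 differences of -0.31 ± 0.039 (edgeR adjusted p = 2.57e-04) and -0.32 ± 0.049 (edgeR adjusted p = 0.00118). BUB3, their WD-repeat partner, moved least, with 259, 237 and 249 CPM in MIB1 WT BMP-on, 221, 220 and 233 CPM in MIB1 KO BMP-on, 266, 268 and 255 CPM in MIB1 WT BMP-off and 264, 257 and 244 CPM in MIB1 KO BMP-off. The KO BMP-on libraries were the lowest, yet -0.14 ± 0.047 was not called (edgeR adjusted p = 0.129). BUB3 was called for its BMP response in MIB1 KO (-0.18 ± 0.047, edgeR adjusted p = 0.0114), a call that was lost without MIB1 KO BMP-off replicate 1 (adjusted p = 0.0646, edgeR) or MIB1 KO BMP-on replicate 1 (adjusted p = 0.0556, edgeR).

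AURKA, the Aurora kinase of centrosomes and spindle poles, fell with BMP-on in both genotypes (edgeR adjusted p = 9.90e-04 in MIB1 WT and 5.88e-07 in MIB1 KO). It had 435, 418 and 417 CPM in MIB1 WT BMP-off, 360, 356 and 360 CPM in MIB1 WT BMP-on, 384, 388 and 381 CPM in MIB1 KO BMP-off and 279, 288 and 288 CPM in MIB1 KO BMP-on. No group overlapped another. The difference with BMP-on was -0.33 ± 0.037 (edgeR adjusted p = 9.36e-05). CDCA8 (borealin), a chromosomal passenger subunit, had 146, 137 and 137 CPM in MIB1 WT BMP-off, 121, 121 and 116 CPM in MIB1 WT BMP-on, 137, 135 and 132 CPM in MIB1 KO BMP-off and 96.1, 94.8 and 94.7 CPM in MIB1 KO BMP-on. Its BMP-off groups met at 137 CPM and both BMP-on groups were lower, with a KO to WT difference of -0.33 ± 0.043 (edgeR adjusted p = 4.77e-04). INCENP had 104, 110 and 117 CPM in MIB1 WT BMP-off, 109, 116 and 105 CPM in MIB1 WT BMP-on, 106, 80.6 and 119 CPM in MIB1 KO BMP-off and 99.9, 95.7 and 89.3 CPM in MIB1 KO BMP-on. The second KO BMP-off library was the lowest of all 12, and the KO to WT difference of INCENP with BMP-on was not called (-0.21 ± 0.11, edgeR adjusted p = 0.450). Without MIB1 KO BMP-off replicate 2, which is outside that comparison, the adjusted p was 0.0309 (edgeR) at a difference of -0.22. In the same fit the BMP response of INCENP in MIB1 KO went from -0.099 to -0.24 (edgeR adjusted p = 0.0114).

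Both RhoA-linked genes at the head of the cytokinesis class were called. ANLN (anillin), which ties actin, myosin and septins at the furrow, had 657, 584 and 578 CPM in MIB1 WT BMP-off, 535, 495 and 491 CPM in MIB1 WT BMP-on, 619, 653 and 577 CPM in MIB1 KO BMP-off and 382, 404 and 394 CPM in MIB1 KO BMP-on. KO BMP-on was separate from every other group. The difference with BMP-on was -0.40 ± 0.051 for ARHGAP11A (edgeR adjusted p = 3.79e-04) and -0.37 ± 0.057 for ANLN (edgeR adjusted p = 0.00132), and the smallest of the class was -0.28 ± 0.041 for SHCBP1 (edgeR adjusted p = 0.00101). The 3 others, PRC1, ECT2 and RACGAP1, lay between them and were called as well.

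TOP2A led the chromosome compaction genes with -0.38 ± 0.051 (edgeR adjusted p = 4.89e-04). NCAPG, a HEAT-repeat subunit of condensin I, had 216, 205 and 198 CPM in MIB1 WT BMP-off, 179, 178 and 178 CPM in MIB1 WT BMP-on, 202, 205 and 191 CPM in MIB1 KO BMP-off and 141, 143 and 143 CPM in MIB1 KO BMP-on. Its BMP-on libraries were nearly identical within each genotype and the KO to WT difference was -0.32 ± 0.044 (edgeR adjusted p = 5.81e-04). SMC2, an ATPase core subunit shared by both condensins, had 230, 207 and 206 CPM in MIB1 WT BMP-off, 209, 198 and 195 CPM in MIB1 WT BMP-on, 222, 233 and 205 CPM in MIB1 KO BMP-off and 164, 173 and 180 CPM in MIB1 KO BMP-on. The WT groups overlapped and KO BMP-on was lower. Its -0.22 ± 0.058 was called with an adjusted p of 0.0463 (edgeR), the call being kept without MIB1 WT BMP-off replicate 1 or 2 and without MIB1 KO BMP-off replicate 2 or 3, and lost in the 8 other fits that left out a library (adjusted p up to 0.272, edgeR).

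UBE2C had 223, 223 and 235 CPM in MIB1 WT BMP-off, 192, 190 and 197 CPM in MIB1 WT BMP-on, 211, 207 and 213 CPM in MIB1 KO BMP-off and 153, 143 and 145 CPM in MIB1 KO BMP-on. No group overlapped another, and their order was that of the summed level. Its difference with BMP-on was -0.39 ± 0.042 (edgeR adjusted p = 9.01e-05). CDC20, the coactivator that the checkpoint holds back, had 284, 285 and 296 CPM in MIB1 WT BMP-off, 257, 267 and 264 CPM in MIB1 WT BMP-on, 261, 226 and 273 CPM in MIB1 KO BMP-off and 214, 212 and 195 CPM in MIB1 KO BMP-on. KO BMP-on was lowest, and the difference was -0.34 ± 0.059 (edgeR adjusted p = 0.00262). CDC25C had 33.0, 33.3 and 32.5 CPM in MIB1 WT BMP-off, 26.0, 25.7 and 27.5 CPM in MIB1 WT BMP-on, 31.2, 30.9 and 30.8 CPM in MIB1 KO BMP-off and 23.6, 21.8 and 22.2 CPM in MIB1 KO BMP-on. Its log2 fold change with BMP-on was already -0.32 ± 0.058 in MIB1 WT (edgeR adjusted p = 0.00341), and the further difference of -0.23 ± 0.059 between the genotypes had an adjusted p of 0.0429 (edgeR). That call held without MIB1 KO BMP-off replicate 2 or 3 and was lost in the 10 other fits that left out a library (adjusted p 0.0508 to 0.222, edgeR).

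With BMP receptors blocked, no member was called between MIB1 KO and MIB1 WT by edgeR, DESeq2 or limma-voom, while 9 members, all lower, had an unadjusted p under 0.05 by each of the 3. At that unadjusted threshold, edgeR had 962 lower and 795 higher of all 17188 genes. Of all genes, 0.0349% (6 genes) were called lower, 0.00582% (1 gene) higher and 0.0116% also by 1 or more on the log2 scale. The median over the members was -0.044, or 97.0% of the WT level, against -0.0086 over all genes. With 1 library left out it ran from -0.062 without MIB1 WT BMP-off replicate 3 to -0.0028 without MIB1 KO BMP-off replicate 3, when 42 and 27 of the 52 members were negative, against 38 with all libraries. Over all genes, 9017 of 17188 were negative with all libraries. In 10 of the 52 the KO libraries lay below the WT libraries, against 5.96% of all genes. The lowest was PLK1, with 262, 274 and 282 CPM in MIB1 WT BMP-off, 243, 208 and 257 CPM in MIB1 KO BMP-off, 254, 268 and 264 CPM in MIB1 WT BMP-on and 218, 218 and 208 CPM in MIB1 KO BMP-on. Its BMP-off groups did not overlap, but the 3 KO libraries were spread over a wide range and -0.21 ± 0.061 was not called (edgeR adjusted p = 0.351). Without MIB1 KO BMP-off replicate 2 it was -0.13, and the lowest member was then at -0.15. The BMP response of PLK1 was -0.055 ± 0.061 in MIB1 WT and -0.13 ± 0.061 in MIB1 KO, neither called, with a KO to WT difference with BMP-on of -0.29 ± 0.061 (edgeR adjusted p = 0.0123). The highest was CENPF at 0.15 ± 0.11, also not called (edgeR adjusted p = 0.649). CENPF was at 0.32 without MIB1 WT BMP-off replicate 1 (edgeR adjusted p = 0.0669), at 0.061 without replicate 2 and 0.087 without replicate 3 of that group, and at 0.078 without MIB1 KO BMP-off replicate 2. These values do not show that the groups were equal, since SEs of 0.036 to 0.11 leave room for differences of this size.

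Among the members, those richer in GC had the more negative values for MIB1 KO against WT with BMP-off. Across the 52 genes, exonic GC content went with the BMP-off log2 fold change at Pearson's r of -0.71 and Spearman's rho of -0.67, and with the interaction at 0.66 and 0.62, described over genes that share the same libraries. Split at the median GC of 42.2%, the 26 members below it had a median of 0.015 with BMP-off and -0.31 for the interaction, and the 26 above it had -0.096 and -0.21. All 4 interaction calls were in the lower GC members. For BMP-on against BMP-off in MIB1 KO, GC content went with the log2 fold change at r of 0.64 and rho of 0.53, and the members below and above the median GC had medians of -0.50 and -0.40 with 26 and 22 calls, so the 4 members not called were all above it. With the GC correction below, INCENP went there from -0.099 to -0.32 (edgeR adjusted p = 2.13e-05). For KO against WT with BMP-on the medians were -0.31 and -0.30, with 21 and 20 calls. With a GC correction of each library, 29 members passed the interaction test, and AURKA alone was called with BMP-off. Over all 17188 genes, 174 and 75 were then called lower in these comparisons. The part of GC content in these differences was not tested further.

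Genes of related machinery outside the 52 were counted from lists chosen by function. Among other spindle and cytokinesis genes, 9 of 30 were lower in MIB1 WT, 27 of 30 in MIB1 KO and 24 of 30 in KO against WT with BMP-on, at medians of -0.18, -0.45 and -0.29. The lowest in MIB1 KO was CKAP2L, a spindle pole protein, at -0.67 ± 0.059, and the highest was NUMA1, which tethers spindle poles, at 0.20 ± 0.09, not called. Other kinetochore and centromere genes had 3, 19 and 11 of 30 lower, from CENPU at -0.64 ± 0.073 to PMF1 at 0.28 ± 0.12 in MIB1 KO, the latter not called. None of these 60 genes was called higher in any comparison, and none passed the interaction test. Over all genes, 2.01% were called lower in MIB1 WT, 10.9% in MIB1 KO and 2.34% in KO against WT with BMP-on.

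Medians were nearer 0 for transport kinesins, the anaphase-promoting complex, and condensin II with cohesin. Of 22 transport kinesins and light chains tested (24 listed), none was called lower in any comparison and 2 were called higher in MIB1 KO, running in MIB1 KO from KIF5A at -0.39 ± 0.34 to KIF12 at 0.98 ± 0.37 (neither called), with medians of 0.056, 0.016 and 0.028 for the WT response, the KO response and KO against WT with BMP-on. Listed genes of the anaphase-promoting complex, FZR1 among them, had 3 of 15 lower and 1 higher in MIB1 KO, with a median of -0.088. The highest was ANAPC2 at 0.52 ± 0.15 (called) and the lowest CDC26 at -0.36 ± 0.26 (not called). Condensin II and cohesin had 8 of 13 lower and 1 higher in MIB1 KO, a median of -0.19, running from NCAPG2 at -0.35 ± 0.046 to MAU2, part of the cohesin loader, at 0.37 ± 0.098, both called. With KO against WT in BMP-on, 2 of these 13 were lower and none of the 15 genes listed for the anaphase-promoting complex was called. Over all genes, 10.9% were called lower and 11.1% higher in MIB1 KO, with 2.34% and 1.32% in KO against WT with BMP-on. The few calls among transport kinesins and anaphase-promoting complex genes are therefore not read as results about those lists.

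The listed regulators of late cell cycle transcription did not move as one, and their part in the differences above was not tested. FOXM1, an activator of G2 and M phase genes, had 264, 241 and 260 CPM in MIB1 WT BMP-off, 237, 240 and 239 CPM in MIB1 WT BMP-on, 247, 239 and 251 CPM in MIB1 KO BMP-off and 189, 201 and 175 CPM in MIB1 KO BMP-on. Only the KO BMP-on libraries stood apart from the others. FOXM1 fell by 0.38 ± 0.051 with BMP-on in MIB1 KO (edgeR adjusted p = 5.14e-05) and was -0.34 ± 0.051 in KO against WT with BMP-on (edgeR adjusted p = 0.00113), with -0.097 ± 0.051 in MIB1 WT and an interaction of -0.29 ± 0.072, neither called. MYBL2 (B-MYB) had 472, 482 and 519 CPM in MIB1 WT BMP-off, 527, 520 and 526 CPM in MIB1 WT BMP-on, 459, 372 and 513 CPM in MIB1 KO BMP-off and 488, 464 and 438 CPM in MIB1 KO BMP-on. Its KO groups overlapped, and its log2 fold changes of 0.095 ± 0.09, 0.049 ± 0.091 and -0.18 ± 0.09 for the WT response, the KO response and KO against WT with BMP-on were not called. Of all 14 regulators listed, 6 fell and 2 rose in MIB1 KO, from RBL1 (p107), a pocket protein, at -0.59 ± 0.075 to E2F4, a repressive E2F, at 0.23 ± 0.067. In KO against WT with BMP-on, RBL1 and FOXM1 were the 2 called, both lower, and no regulator passed in the 3 other comparisons. The shares over all genes were 10.9% lower and 11.1% higher in MIB1 KO, and 2.34% lower in KO against WT with BMP-on.

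**Figure D5:**
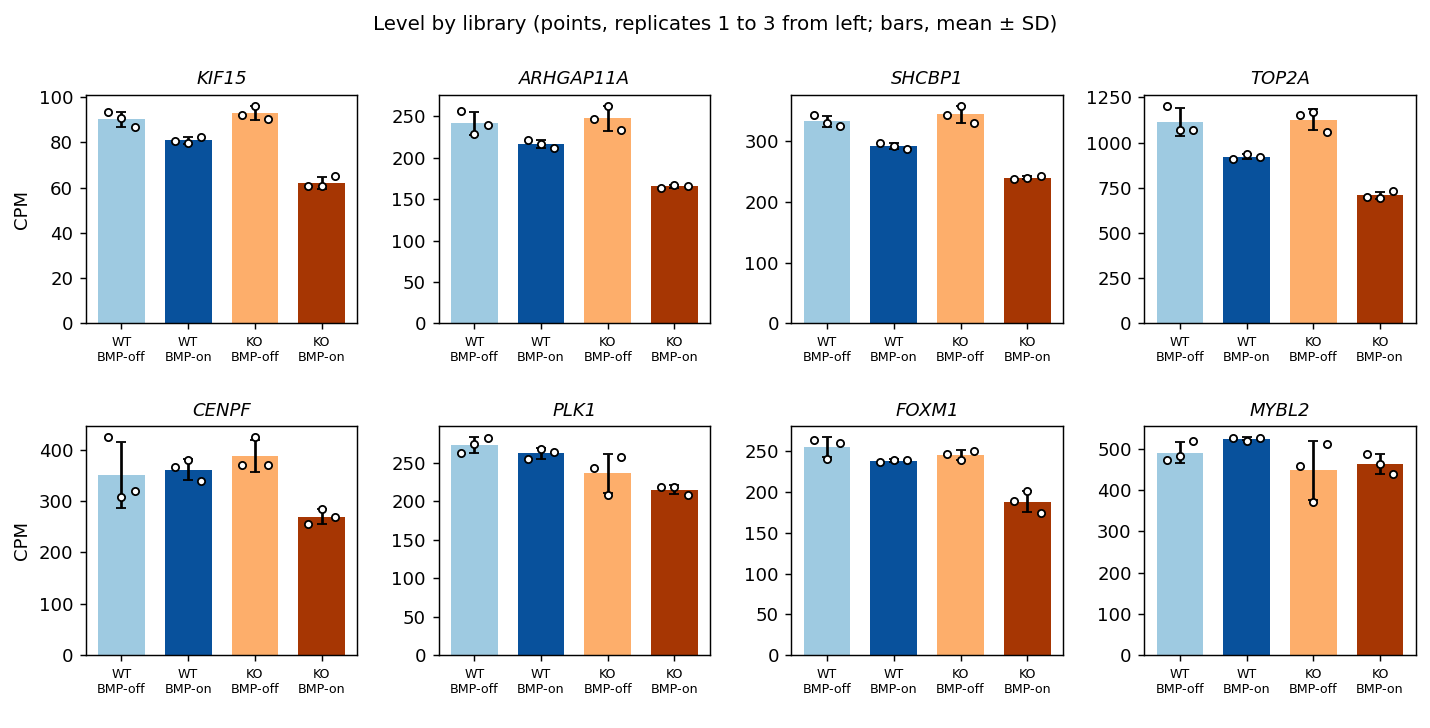
CPM in each library (points, replicates 1 to 3 from left to right) with mean and SD (bars) for the 4 genes called in the interaction, CENPF, PLK1 and the regulators FOXM1 and MYBL2. KO BMP-on is lowest for the first 5 genes and FOXM1, while the first WT BMP-off library is high for CENPF and the second KO BMP-off library is low for PLK1 and MYBL2.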

How the data were processed

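RNA-seq of 12 libraries, 4 groups of 3, was analysed. After discarding ribosomal reads, the authors used GSNAP against GRCh38 (at most 2 mismatches per 50 bases) and deposited whole-number counts per gene from HTSeqGenie, with no normalization. The study's methods name RefSeq exons, whereas the deposited rows carry Ensembl identifiers, so the gene models behind each count are not settled. They also deposited RPKM, which served here for levels between genes and for alternatives. Reads were single-end and the library kit is not given unambiguously in the sources used here. The tables hold 58302 identifiers, of which 770 had no symbol, and 0 sample columns were left out.

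Counts were tested with edgeR 4.0.16 in R 4.3.3 (TMM scaling, default filter by group, robust quasi-likelihood fit over all 12 libraries) for 5 comparisons, namely BMP-on against BMP-off within each genotype, MIB1 KO against MIB1 WT within each BMP state, and the difference between the BMP responses (interaction). P-values were adjusted by Benjamini-Hochberg over 17188 genes, and the SE is the log2 fold change divided by the square root of F. Alternatives used DESeq2 1.42.0, limma 3.58.1, other scalings and filters, log2(RPKM + 1) and log2(RPKM + 0.1), a loess GC correction, replicate blocks and leaving out each library.

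The members and lists were chosen with earlier results of these data known. Values in every library are given for the 2 most and the 1 least negative members of each class in KO against WT with BMP-on, members called in the interaction, members at the ends of each comparison, FOXM1 and MYBL2. Totals of 19124010 to 29498000 counts set the precision of low genes.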

Additional observations from a re-analysis of the deposited data

Results flagged for a closer look

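For 4 members the BMP response itself differed between MIB1 KO and MIB1 WT in the interaction test (edgeR, adjusted p at most 0.05), all with the larger fall in MIB1 KO. The log2 difference was -0.42 for KIF15, -0.43 for ARHGAP11A, -0.33 for SHCBP1 and -0.40 for TOP2A. In each of the 4, the 3 KO BMP-on libraries lay below the 9 others. All 4 calls were lost with the replicate block and in the fits without any 1 of 9 libraries. In those fits no gene of all tested was called lower in the interaction.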

How the results depend on the processing

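Directions and counts for the BMP response in MIB1 KO (46 to 51 members lower over 25 alternatives) and for the genotypes compared in BMP-on (29 to 52) kept to the lower side, and no member was called higher in any alternative of any comparison. Over all genes, 1259 to 2468 and 213 to 823 were called lower in these 2 comparisons. For the BMP response in MIB1 WT, 11 members were lower with log2(RPKM + 1) without a filter, 38 with a GC correction, 37 with the replicate block and GC correction, and 8 to 30 with 1 library left out. The lower calls over all genes moved too, with 209 of 34618, 955 of 17188 and 873 of 17188 in the first 3 of these settings. They numbered 165 to 560 with 1 library left out, against 346 in the reported fit. With a GC correction 62.0% of all calls for the WT response were lower, against 51.3%. With BMP-off, 2 members were lower with no filter on low counts and 1 with the GC correction, with or without the block. Over all genes, 172 were lower with no filter, 75 with the GC correction and 66 with the block as well, against 6 in the reported fit. For the interaction, the reported 4 became 23 with DESeq2, 2 with limma-voom, 1 with scaling by library size, 2 with upper quartile scaling, 21 with no filter, 0 with the replicate block, 0 in each of the 3 RPKM fits, 29 with the GC correction, 23 with the block and GC correction, and 0 to 23 with 1 library left out. Lower genes were 36.4% of all interaction calls with limma-voom, 71.4% with DESeq2 and 73.7% with the GC correction. Their number over all genes moved too, from 9 in the reported fit to 4 with limma-voom, 110 with DESeq2, 185 with no filter and 174 with the GC correction. It was 3 with scaling by library size, 5 with upper quartile scaling, 0 with the replicate block and 142 with the block and GC correction. The DESeq2 adjustment covered 11188 genes there, against 17188 in the reported fit. The cause of these shifts was not tested.

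Signs turned for values near 0. With 1 library left out, the WT response ran from -0.13 to 0.008 for KIF20B, from -0.04 to 0.21 for CENPF and from -0.048 to 0.033 for INCENP, which was 0.0012 with limma-voom. The KO response of INCENP ran from -0.24 to 0.015. The interaction of KIF22 was -0.0093 with upper quartile scaling, -0.0035 with no filter, -0.011, -0.012 and -0.011 in the RPKM fits, -0.061 with the GC correction, -0.059 with the block as well, and -0.098 to 0.10 with 1 library left out. None of these was called in the reported fit.

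Whether same-numbered libraries were paired is not given by the labels. The paper describes splitting the cells between media with and without LDN, so BMP-on and BMP-off libraries of a genotype may share a parent culture. Of 18 same-numbered pairs, 2 had residual correlations above 0.1 (range -0.19 to 0.19). This cannot show that the libraries were unpaired, because the residuals also carry the GC trends of single libraries. With the replicate block, 18 members were lower in MIB1 WT, 47 in MIB1 KO, 36 between genotypes in BMP-on, 0 in BMP-off and 0 in the interaction. Over all genes, 258, 1636, 302, 5 and 0 were called lower in that fit, against 346, 1874, 403, 6 and 9 in the reported fit.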
